A study of Mus musculus with 6 samples.

Results

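The muscarinic and endothelin signalling genes described here are Chrm2, Chrm3, Edn1, Edn3, Ednra, Ednrb and Ece1, taken by gene symbol from the deposited gene table of an intestinal fibroblast series. They were chosen by their pathway, with the gene-level differences between the genotypes in this same table already known. All 7 were present among its 15238 genes. Bulk RNA was sequenced from podoplanin-positive cells sorted from the intestine at postnatal day 9, after cells carrying CD45, EpCAM or CD31 (surface markers of leukocytes, epithelium and endothelium) had been gated out. The 3 DdblGata1 libraries (replicates 4, 9 and 10) came from Balb/c pups that lack eosinophils because a GATA-binding element in the promoter of the Gata1 gene is deleted, and the 3 wild-type libraries (replicates 1, 3 and 4) came from Balb/c pups without that deletion. The deletion is carried by every cell of the animal. The labels do not say whether a library is 1 pup or a pool, so the spread given here is that between libraries and may be partly technical.

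Endothelins are short peptides that are cut from a larger precursor by the membrane protease endothelin converting enzyme, encoded by Ece1. They act on a pair of G protein-coupled receptors. The type A receptor, encoded by Ednra, prefers endothelin-1, the product of Edn1, and contracts smooth muscle. The type B receptor, encoded by Ednrb, binds all endothelins. In the developing gut, endothelin-3, the product of Edn3, is made by the mesenchyme and signals through the type B receptor to migrating precursors of the enteric nervous system. Muscarinic receptors answer acetylcholine released by enteric neurons. The M3 receptor, encoded by Chrm3, couples to Gq and phospholipase C, the M2 receptor, encoded by Chrm2, couples to Gi, and together they drive contraction of gut smooth muscle.

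The gene table held 28110454 to 30993472 estimated counts per DdblGata1 library and 30210644 to 31210800 per wild-type library. Gata1 was all but silent in these cells, with 1 count in a single wild-type library and 0 elsewhere, so it gave no measure of the deletion. Fibroblast markers were abundant: the 7 of them (Pdpn, Pdgfra, Col1a1, Col1a2, Col3a1, Dcn and Lum) summed to 54997 to 67211 TPM (a level corrected for transcript length and library size) in DdblGata1 and 45972 to 67688 TPM in wild-type libraries. Transcripts of smooth muscle were also high, with 8 markers summing to 6552 to 10208 TPM in DdblGata1 and 9308 to 14622 TPM in wild-type libraries. Markers of leukocytes summed to 19.6 to 25.6 TPM in DdblGata1 and 19.4 to 40.2 TPM in wild-type libraries. Those of enteric neurons summed to 81.1 to 128 TPM in DdblGata1 and 51.0 to 118 TPM in wild-type libraries, and those of mesothelium to 206 to 332 TPM and 210 to 313 TPM in DdblGata1 and wild-type libraries. Lymphatic endothelial markers summed to 162 to 612 TPM in DdblGata1 and 167 to 484 TPM in wild-type libraries, nearly all of it Ccl21a, and the other 4 summed to 1.36 to 3.57 TPM in DdblGata1 and 1.55 to 6.95 TPM in wild-type libraries. Epithelial markers summed to 98.3 to 128 TPM in DdblGata1 libraries and 88.8 to 425 TPM in wild-type libraries, with the highest value in wild-type replicate 1.

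The promoter windows of the 3 genes whose values did not overlap between genotypes (Edn1, Chrm3 and Ednra), and of Ednrb, whose transcripts differ in where they start, are shown for orientation, from 250 bases before to 50 bases from the start of transcription. They are RefSeq sequences on GRCm38.p6, written 5′ to 3′ on the gene's strand. A single capital marks the annotated first base, and the run of 6 capitals in Edn1 is a match to the GATA motif. Edn1 lies at chr13:42301226-42301525 (plus strand), Chrm3 at chr13:10360754-10361053 (minus), Ednra at chr8:77724403-77724702 (minus) and Ednrb at chr14:103843652-103843951 (minus).
Edn1: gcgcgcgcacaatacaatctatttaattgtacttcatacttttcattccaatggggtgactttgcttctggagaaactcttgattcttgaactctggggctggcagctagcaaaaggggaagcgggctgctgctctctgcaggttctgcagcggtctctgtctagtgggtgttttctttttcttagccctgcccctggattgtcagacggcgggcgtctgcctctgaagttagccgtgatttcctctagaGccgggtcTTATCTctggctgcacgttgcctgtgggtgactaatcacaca
Chrm3: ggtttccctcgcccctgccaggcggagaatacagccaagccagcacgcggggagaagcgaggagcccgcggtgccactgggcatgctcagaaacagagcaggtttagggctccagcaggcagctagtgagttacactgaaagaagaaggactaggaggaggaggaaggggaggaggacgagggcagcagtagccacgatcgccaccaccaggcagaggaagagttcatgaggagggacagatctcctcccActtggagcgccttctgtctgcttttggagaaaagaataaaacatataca
Ednra: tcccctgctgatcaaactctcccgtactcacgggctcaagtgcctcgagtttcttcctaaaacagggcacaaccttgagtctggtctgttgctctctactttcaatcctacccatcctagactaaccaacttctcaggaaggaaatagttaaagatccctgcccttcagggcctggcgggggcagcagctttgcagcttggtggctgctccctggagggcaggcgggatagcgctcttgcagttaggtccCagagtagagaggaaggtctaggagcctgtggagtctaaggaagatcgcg
Ednrb: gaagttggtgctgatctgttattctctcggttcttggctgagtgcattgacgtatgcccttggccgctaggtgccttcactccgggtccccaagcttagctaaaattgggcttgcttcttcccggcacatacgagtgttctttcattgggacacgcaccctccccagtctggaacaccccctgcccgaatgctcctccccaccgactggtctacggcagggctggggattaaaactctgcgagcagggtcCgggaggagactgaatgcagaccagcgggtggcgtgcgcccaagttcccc
These windows were searched on both strands for the CArG box of serum response factor, for the AP-1 motif TGACTCA and the cyclic AMP response element (CRE) TGACGTCA, which factors of the CREB family bind, and for the GATA factor motif, which reads AGATAA. The Edn1 window held 1 GATA match, on the opposite strand, whose first letter is base 9 counted from the annotated start as 1. At least 1 GATA match was present in 11.2% of 32851 mouse promoter windows of this length. The windows of the other 6 genes held no match to any of the 4 motifs. AP-1 occurred in 5.20%, CRE in 1.79% and CArG in 1.63% of all windows.

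Levels per transcript length spanned a wide range, with Ece1 and the endothelin receptors at the top and Chrm3 and Edn1 at the bottom. The mean over all 6 libraries was 57.2 TPM for Ece1, 53.7 for Ednrb, 36.9 for Ednra, 29.8 for Chrm2, 14.5 for Edn3, 7.44 for Chrm3 and 6.76 for Edn1. Ece1 exceeded 83.8% and Edn1 34.3% of all genes in the table. The ranges of every pair of neighbours in this order overlapped, but Ednrb was above Ednra and Chrm2 above Edn3 in all 6 libraries, while Ece1 was above Ednrb in only 4. Ednrb was thus the more abundant endothelin receptor message in every library, and Chrm2 more abundant than Chrm3. In wild-type replicate 1 Ednrb and Ednra were close, at 41.8 and 40.8 TPM. Receptor protein was not measured.

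The 7 genes were chosen with their genotype differences known, so these differences are given as a description. Calls, p-values and ranks of the 7 genes are printed beside it, but they come from values known at the choice. They are no independent evidence of a difference. CPM below are counts relative to the scaled library size, and each log2 fold change is edgeR's estimate for DdblGata1 over wild-type with its standard error. By the quasi-likelihood test of edgeR with Benjamini-Hochberg adjustment at 0.05, 0 of the 7 and 0 of all 15238 genes (0%) were called. At an unadjusted p under 0.05, 2 of the 7 were higher and 3 lower, beside 10.3% of all genes (6.03% higher and 4.23% lower), and by DESeq2 likewise 2 and 3, beside 12% (6.43% higher and 5.54% lower). At an adjusted p under 0.05 DESeq2 called 1 of the 7 (Edn1, higher), beside 1.4% of all genes (0.932% higher and 0.473% lower). In 3 of the 7 the CPM of the genotypes did not overlap (2 higher and 1 lower), beside 16.3% of all genes (8.98% higher and 7.34% lower). Nothing is read from these counts. In bulk RNA, fewer cells of a type and less RNA per cell cannot be told apart.

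**Figure D1:**
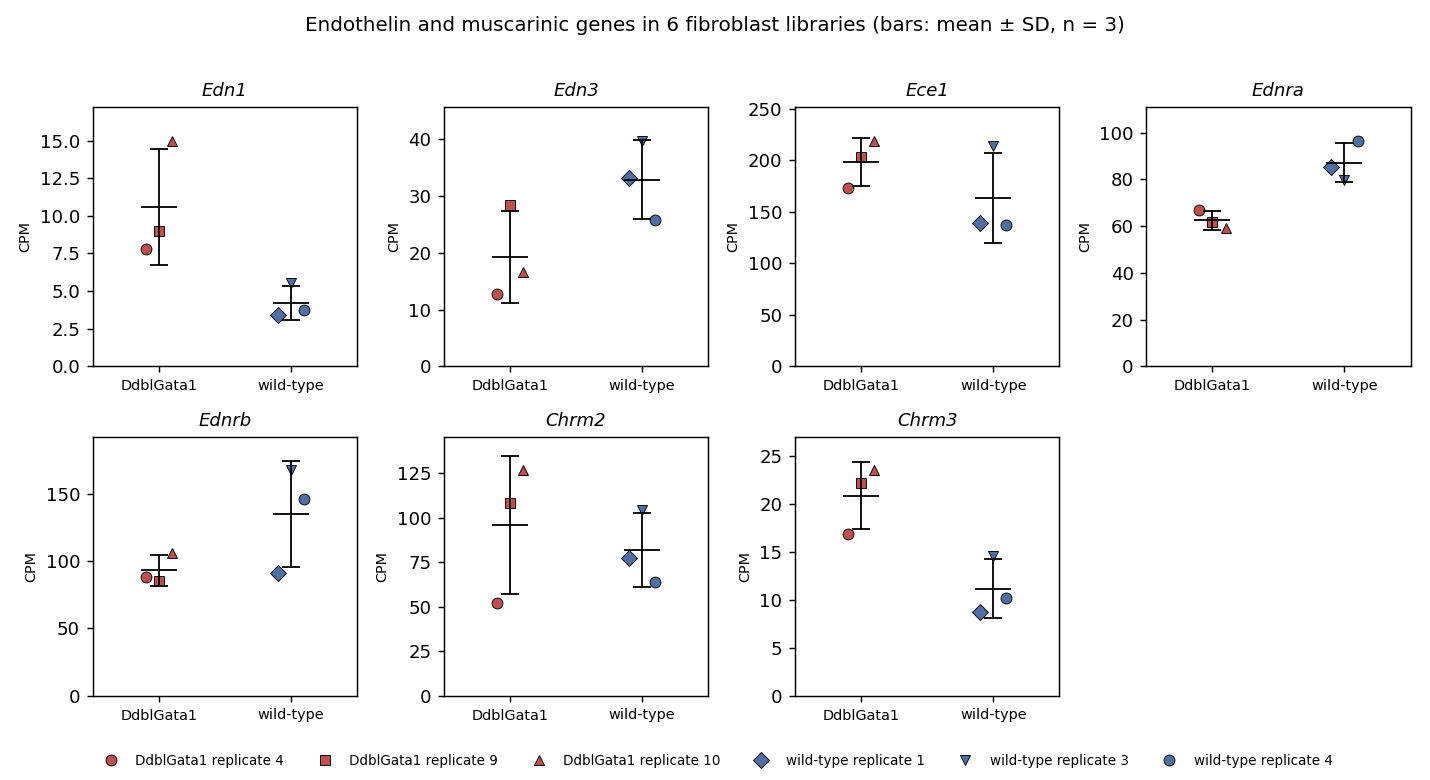
Scaled CPM (vertical axes, each from 0) of the 7 genes in the 3 DdblGata1 and 3 wild-type libraries. Each symbol is 1 library and bars give mean ± SD. Edn1 and Chrm3 are higher in every DdblGata1 library than in any wild-type library, Ednra is lower, and the other 4 genes overlap.

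The endothelin ligands had fold changes of opposite sign. Edn1 (ENSMUSG00000021367, GRCm38 chromosome 13, 42301476 to 42307990) had 7.77, 8.97 and 15.0 CPM in DdblGata1 replicates 4, 9 and 10, against 3.39, 5.52 and 3.73 CPM in wild-type replicates 1, 3 and 4. Every DdblGata1 library lay above every wild-type library, and DdblGata1 replicate 10 stood highest. Behind these values were 212 to 464 counts in DdblGata1 and 111 to 160 counts in wild-type libraries. The means were 10.6 ± 3.86 CPM in DdblGata1 and 4.21 ± 1.14 CPM in wild-type libraries (SD, n = 3 each), and the log2 fold change was 1.33 ± 0.34 (SE), or 2.51-fold. It was larger in size than that of 97.7% of all genes. DESeq2 gave Edn1 an adjusted p of 0.0274 with all libraries. That p was 0.343 without DdblGata1 replicate 10, 0.0904 without DdblGata1 replicate 9, 0.14 without wild-type replicate 1 and 0.128 without wild-type replicate 4. The DESeq2 call was thus lost in each of these fits, which also have fewer libraries. DESeq2's log2 fold change in them was 0.99, 1.43, 1.18 and 1.25 in the same order, against 1.32 with all libraries. The DESeq2 adjusted p was 0.00616 when DdblGata1 replicate 4 was left out, and 0.0117 when wild-type replicate 3 was. edgeR's log2 fold change was lowest, 0.97, both without DdblGata1 replicate 10 and with the deposited surrogate variables as covariates.

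Edn3 (ENSMUSG00000027524, chromosome 2, 174760619 to 174784042) had 12.8, 28.4 and 16.6 CPM in DdblGata1 replicates 4, 9 and 10, against 33.1, 39.7 and 25.8 CPM in wild-type replicates 1, 3 and 4. DdblGata1 replicate 9 exceeded wild-type replicate 4, so the genotypes overlapped, while the other DdblGata1 libraries lay below all wild-type libraries. The means were 19.3 ± 8.15 CPM in DdblGata1 and 32.9 ± 6.97 CPM in wild-type libraries (SD, n = 3 each), and the log2 fold change was -0.77 ± 0.31 (SE). That value was -1.18 without DdblGata1 replicate 9 and -0.55 without DdblGata1 replicate 4.

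The ligands were also compared within each library. Edn1 made up 49.4%, 33.7% and 59.3% of the summed Edn1 and Edn3 TPM in DdblGata1 replicates 4, 9 and 10, against 14.1%, 18.3% and 18.9% in wild-type replicates 1, 3 and 4. The lowest DdblGata1 share was above the highest wild-type share. In DdblGata1 replicate 10, Edn1 was the more abundant of the pair, and in DdblGata1 replicate 4 the 2 messages stood close together. The summed level was 14.9 to 25.2 TPM in DdblGata1 and 18.2 to 25.6 TPM in wild-type libraries, and these ranges overlapped.

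Edn1 is made by endothelium in many tissues, and blood endothelial markers were therefore read beside it. The 7 markers (Pecam1, Cdh5, Kdr, Tie1, Tek, Cldn5 and Emcn) summed to 49.9 to 68.2 TPM in DdblGata1 and 26.3 to 33.0 TPM in wild-type libraries, without overlap. None was at 0 in any library, although the sort had gated out CD31, the product of Pecam1. Tek, the angiopoietin receptor, carried this difference, with 34.0 to 59.8 TPM in DdblGata1 and 11.1 to 21.0 TPM in wild-type libraries. The other 6 markers summed to 15.8, 14.3 and 8.34 TPM in DdblGata1 replicates 4, 9 and 10, against 15.2, 11.9 and 12.9 TPM in wild-type replicates 1, 3 and 4, and overlapped. Tek was set apart after its values were seen, and the part of endothelial RNA in the Edn1 difference was not tested.

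Ece1 (ENSMUSG00000057530, chromosome 4, 137862237 to 137965229), which encodes the protease that releases the active peptides, had 173, 204 and 219 CPM in DdblGata1 replicates 4, 9 and 10, against 140, 213 and 137 CPM in wild-type replicates 1, 3 and 4. Wild-type replicate 3 lay within the DdblGata1 range, and the other wild-type libraries lay below it. The log2 fold change was 0.28 ± 0.21 (SE), between 0.10 and 0.52 over the alternatives. Nearly all of the signal came from the transcript Ece1-201, at 100% of the gene's TPM in 5 libraries and 93.3% in DdblGata1 replicate 4, where Ece1-204 took the rest.

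**Figure D2:**
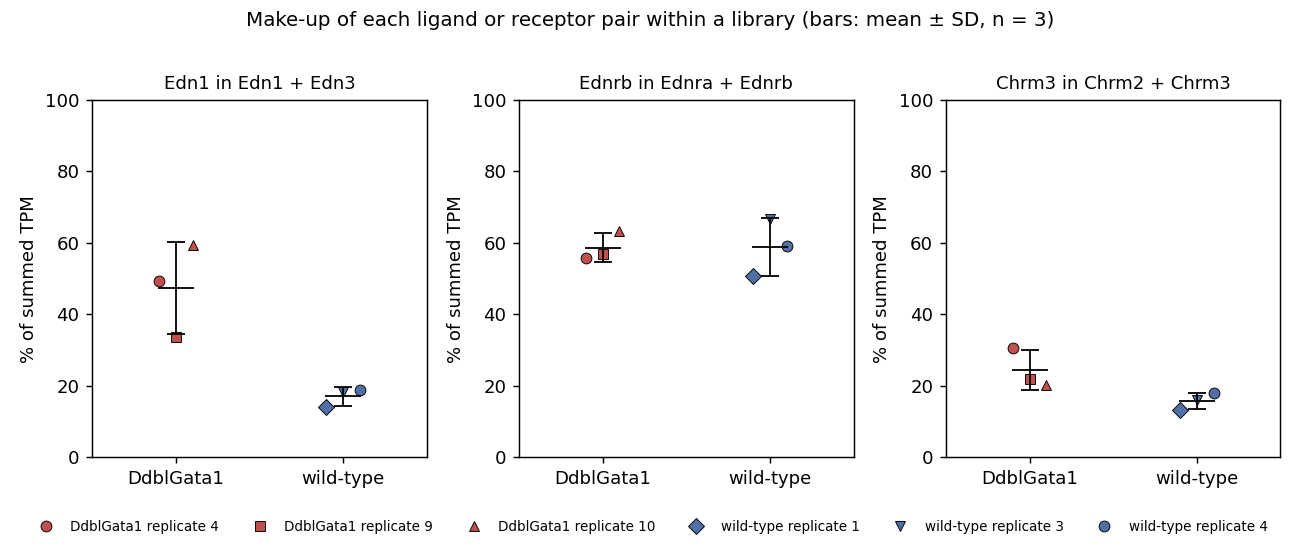
Share (percent of summed TPM, vertical axes from 0 to 100) of Edn1 in the ligand pair, Ednrb in the endothelin receptor pair and Chrm3 in the muscarinic receptor pair, by library; bars give mean ± SD. Edn1 takes 33.7% to 59.3% in DdblGata1 and 14.1% to 18.9% in wild-type libraries, whereas the Ednrb share overlaps.

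Both endothelin receptors had lower mean values in DdblGata1 libraries. Ednra (ENSMUSG00000031616, chromosome 8, 77663031 to 77724464) had 67.1, 61.6 and 59.1 CPM in DdblGata1 replicates 4, 9 and 10, against 85.4, 79.9 and 96.5 CPM in wild-type replicates 1, 3 and 4. The genotypes did not overlap, and the DdblGata1 libraries lay close to each other. The means were 62.6 ± 4.08 CPM in DdblGata1 and 87.3 ± 8.49 CPM in wild-type libraries (SD, n = 3 each), and the log2 fold change was -0.48 ± 0.14 (SE). Over 20 alternatives it ran from -0.54 to -0.38, the narrowest range of the 7 genes.

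Ednrb (ENSMUSG00000022122, chromosome 14, 103814625 to 103844402) had 88.2, 85.0 and 106 CPM in DdblGata1 replicates 4, 9 and 10, against 91.1, 167 and 146 CPM in wild-type replicates 1, 3 and 4. Wild-type replicate 1 fell among the DdblGata1 libraries, while the other wild-type libraries were higher than all of them. The means were 93.0 ± 11.2 CPM in DdblGata1 and 135 ± 39.3 CPM in wild-type libraries (SD, n = 3 each), and the log2 fold change was -0.53 ± 0.23 (SE). It was -0.77 without wild-type replicate 1 and -0.35 without wild-type replicate 3. The summed receptor level was 73.7 to 79.2 TPM in DdblGata1 and 82.6 to 119 TPM in wild-type libraries, which did not overlap. The split between the receptors did overlap: Ednrb made up 55.8% to 63.3% of the sum in DdblGata1 and 50.6% to 66.8% in wild-type libraries.

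Ednra is expressed by pericytes and vascular smooth muscle, and Ednrb by enteric glia. Pericyte markers summed to 559 to 602 TPM in DdblGata1 and 717 to 940 TPM in wild-type libraries, without overlap, and Rgs5 held most of that sum. Of the 6 markers, 5 were in the gene table, and Higd1b was at or near 0. Without Rgs5, the other 5 summed to 150 to 187 TPM in DdblGata1 and 191 to 226 TPM in wild-type libraries. Their part in the Ednra difference was not tested. The 7 glial markers (among them Sox10) summed to 152, 101 and 119 TPM in DdblGata1 replicates 4, 9 and 10, against 67.6, 179 and 171 TPM in wild-type replicates 1, 3 and 4, with none at 0. Wild-type replicate 1, the lowest in glial markers, was also the wild-type library with the lowest Ednrb. Among DdblGata1 libraries, replicate 9 was lowest in both, but replicate 4 was highest in glial markers and replicate 10 in Ednrb. The part of glial RNA in the Ednrb difference was not tested.

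The annotation gives Ednrb 3 transcripts with the same coding sequence of 1326 bases. Ednrb-201 begins at base 103844402 with a noncoding exon of 276 bases, 706 bases upstream of the start of Ednrb-202, and is spliced into the exon that holds the start codon. Ednrb-202 and Ednrb-203 begin 1 base apart, 5 and 6 bases downstream of the annotated first base in the Ednrb window printed above, which therefore belongs to their start and not to that of Ednrb-201. Ednrb-201 had 12.0, 14.0 and 12.6 TPM in DdblGata1 replicates 4, 9 and 10, against 17.6, 28.3 and 32.9 TPM in wild-type replicates 1, 3 and 4. Every DdblGata1 library was below every wild-type library. Ednrb-202 had 29.7, 27.2 and 36.8 TPM in DdblGata1 libraries in the same order, against 21.4, 42.3 and 33.0 TPM in wild-type libraries. Its genotypes overlapped and its means were close, at 31.2 ± 4.97 TPM in DdblGata1 and 32.2 ± 10.4 TPM in wild-type libraries. Ednrb-203 was minor, at 0.809 to 2.11 TPM in DdblGata1 and 2.78 to 4.25 TPM in wild-type libraries.

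As a share of the gene, Ednrb-201 took 27.4%, 33.3% and 25.0% in DdblGata1 replicates 4, 9 and 10, against 42.1%, 38.1% and 46.9% in wild-type replicates 1, 3 and 4. The means were 28.6% ± 4.27 in DdblGata1 and 42.4% ± 4.41 in wild-type libraries (SD, n = 3 each), and the shares did not overlap. Shares of transcripts come from the same libraries and comparison as the gene values and are a description too. How often such shares, or the shares and sums of gene pairs, fail to overlap over all genes was not counted. edgeR's test of transcript usage did not call Ednrb by the Simes method (unadjusted p 0.427), which called 0.254% of 9448 genes. The gene-level F test did not call it either (unadjusted p 0.0325), with 0.497% called. The transcripts share nearly all of their sequence, so the split rests on few distinguishing reads and its estimation error is unknown.

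**Figure D3:**
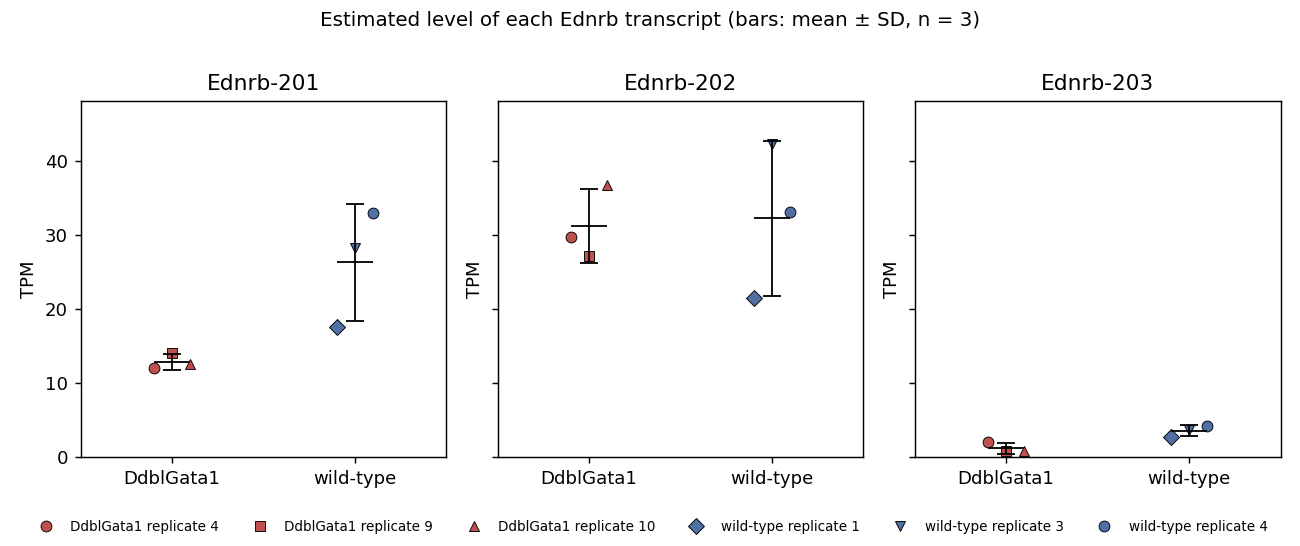
Estimated level (TPM, vertical axis from 0) of the 3 Ednrb transcripts by library; bars give mean ± SD. Ednrb-201 lies at 12.0 to 14.0 TPM in DdblGata1 and 17.6 to 32.9 TPM in wild-type libraries, and Ednrb-202 overlaps.

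The muscarinic receptors differed from each other. Chrm3 (ENSMUSG00000046159, chromosome 13, 9875486 to 10360847) had 16.9, 22.3 and 23.5 CPM in DdblGata1 replicates 4, 9 and 10, against 8.72, 14.6 and 10.2 CPM in wild-type replicates 1, 3 and 4. The lowest DdblGata1 library lay above the highest wild-type library. The means were 20.9 ± 3.52 CPM in DdblGata1 and 11.2 ± 3.07 CPM in wild-type libraries (SD, n = 3 each), and the log2 fold change was 0.90 ± 0.25 (SE), or 1.87-fold. Over the alternatives it ran from 0.66 with the deposited surrogate variables to 1.14 without wild-type replicate 3. Its reads were assigned mainly to Chrm3-202, the spliced transcript of 5 exons, at 59.4% to 71.8% of the gene in DdblGata1 and 66.2% to 82.1% in wild-type libraries. Most of the remainder went to Chrm3-201, a single coding exon that lies wholly inside Chrm3-202, so that split is uncertain.

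Chrm2 (ENSMUSG00000045613, chromosome 6, 36388084 to 36528414) had 52.3, 108 and 126 CPM in DdblGata1 replicates 4, 9 and 10, against 77.6, 104 and 63.9 CPM in wild-type replicates 1, 3 and 4. The lowest and the highest of all 6 values were both in DdblGata1 libraries. The log2 fold change was 0.22 ± 0.32 (SE), and its sign turned to -0.05 without DdblGata1 replicate 10 and to -0.21 with the surrogate variables. No direction can be given for Chrm2 from these libraries. Chrm3 made up 30.7%, 22.0% and 20.3% of the summed Chrm2 and Chrm3 TPM in DdblGata1 replicates 4, 9 and 10, against 13.3%, 16.1% and 17.9% in wild-type replicates 1, 3 and 4, without overlap.

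Smooth muscle also carries both muscarinic receptors. Its 8 markers (Acta2, Myh11, Des, Cnn1, Tagln, Actg2, Smtn and Mylk) summed to 6552, 10208 and 8069 TPM in DdblGata1 replicates 4, 9 and 10, against 14622, 14187 and 9308 TPM in wild-type replicates 1, 3 and 4, with none at 0. DdblGata1 replicate 9 lay above wild-type replicate 4, so the sums overlapped. The 5 markers of interstitial cells of Cajal, gut pacemakers that carry muscarinic receptors too, summed to 133 to 248 TPM in DdblGata1 and 218 to 280 TPM in wild-type libraries. DdblGata1 replicate 4, lowest in Chrm2 over all libraries, was also the lowest for both marker lists, and their part in the receptor values was not tested.

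Likeness between genes across the 6 libraries is described by Pearson's r of log2 CPM, without a test, and it varied from pair to pair. Edn1 ran with Chrm3 (r = 0.96) and against Ednra (r = -0.94). With the genotype means removed, the same pairs had r = 0.84 and r = -0.70. Chrm3 and Ece1 had r = 0.87, and 0.94 with genotype means removed. Edn3 was nearest to Ednra among the other 6 genes (r = 0.52), but this turned to -0.63 once genotype means were removed. Ednrb had r = -0.28 with Chrm3 and -0.32 with Edn1, which turned to 0.77 and 0.71 with genotype means removed, and r = 0.04 with Ece1. These points share the libraries, their depth and the genotype difference, and with 6 libraries high values are common: 161 genes had r above 0.95 with Edn1 and 10 with Ednrb. The genes most like each were Rprd1a, Dpp4 and Sgtb for Edn1 (r = 0.997, 0.995 and 0.995), Zfp58, Plxdc2 and Pex5l for Chrm3 (0.99 each), and Efhb, Nupl2 and Cdkn1b for Chrm2 (0.99 each). For Ednra they were Tmem164, Trappc12 and Msantd3 (0.996, 0.986 and 0.985), and Cdk5rap3 and Bmp3 were among those for Ednrb (0.98 and 0.97). For Edn3 they were Rnf7, Aspscr1 and Popdc2 (0.98 each), and for Ece1 Lca5l, Brap and Ncoa3 (0.99, 0.99 and 0.98).

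Other genes of the same pathways were read from 7 lists. These had 51 members, of which 47 were in the gene table, 21 with a higher and 26 with a lower value. edgeR called 0 of the 47, DESeq2 called 0, and 5 had an unadjusted p under 0.05 in edgeR (2 higher and 3 lower), beside 10.3% of all genes, a share close to that of the lists. DESeq2 called 2 of them, Gnai2 and Gna12, lower when DdblGata1 replicate 4 was left out, beside 3.2% of all genes called lower in that fit. The library left out had the highest DdblGata1 value of both genes. Gnai2 had 490 CPM in it, against 271 and 245 CPM in DdblGata1 replicates 9 and 10, and Gna12 had 128 against 103 and 88.2 CPM. The median log2 fold change of the 47 was -0.06, beside -0.01 over all genes. Of the upstream genes, Chrm1, another muscarinic receptor, was near the floor with 1.09 ± 0.39 CPM in DdblGata1 and 0.94 ± 0.54 CPM in wild-type libraries (SD, n = 3 each). Chrm4 and Chrm5 were not in the gene table. Edn2, the remaining endothelin gene, was also near the floor, with 0.56 ± 0.27 CPM in DdblGata1 and 1.21 ± 0.91 CPM in wild-type libraries. Wild-type replicate 1 had 2.26 CPM of it, and wild-type replicates 3 and 4 had 0.66 and 0.72 CPM. Mme, a peptidase that degrades endothelins, had 18.0 ± 2.79 CPM in DdblGata1 and 21.1 ± 17.2 CPM in wild-type libraries. Its wild-type values were 40.3, 7.10 and 15.9 CPM in replicates 1, 3 and 4. Of the listed genes of acetylcholine handling, Chat was not in the gene table. All 4 measured ones had lower values, beside 7726 of all 15238 genes, and each of the 4 overlapped between genotypes. Their log2 fold changes ran from -0.54 ± 0.46 (SE) for Slc5a7, the choline transporter, to -0.03 ± 0.57 for Slc18a3, a value well within its error. Both genes were low, with means of 2.22 and 1.48 CPM in DdblGata1 and 3.24 and 1.52 CPM in wild-type libraries. Bche, butyrylcholinesterase, was the most abundant of the 4, at 83.4 ± 7.81 CPM in DdblGata1 and 104 ± 13.0 CPM in wild-type libraries (log2 fold change -0.31 ± 0.15, SE).

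Downstream of the receptors, 4 of 9 G protein alpha subunits had higher and 5 lower values, with a median of -0.12. Gna14, of the Gq family, had 7.19 ± 1.20 CPM in DdblGata1 and 10.6 ± 1.53 CPM in wild-type libraries (log2 fold change -0.56 ± 0.23, edgeR adjusted p 0.483). Gna12, which couples receptors to RhoA, had -0.29 ± 0.16 (edgeR adjusted p 0.544). Of 11 genes for phospholipase C beta, IP3 receptors and protein kinase C, 6 were higher and 5 lower by value, and the IP3 receptor genes Itpr2 and Itpr1 had 0.55 ± 0.24 and 0.21 ± 0.14. In the RhoA arm, 5 of 8 had higher values. Rock1, one of the kinases downstream of RhoA that raise the calcium sensitivity of contraction, had 75.0, 86.3 and 95.3 CPM in DdblGata1 replicates 4, 9 and 10, against 50.0, 62.3 and 67.4 CPM in wild-type replicates 1, 3 and 4 (log2 fold change 0.51 ± 0.17, edgeR adjusted p 0.435). Rock2, its paralogue, had 136, 139 and 177 CPM in DdblGata1 libraries, against 76.6, 108 and 119 CPM in wild-type libraries in the same order of replicates (0.58 ± 0.20, edgeR adjusted p 0.444). The groups did not overlap for 8 of the 47 pathway genes, both kinases among them, beside 16.3% of all genes. Neither kinase passed the test. Of 11 desensitisation genes, Rgs5 and Rgs3, which switch off G proteins, had -0.59 ± 0.19 and -0.49 ± 0.19 (edgeR adjusted p 0.433 and 0.461), and Rgs5 is also a pericyte marker.

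**Figure D4:**
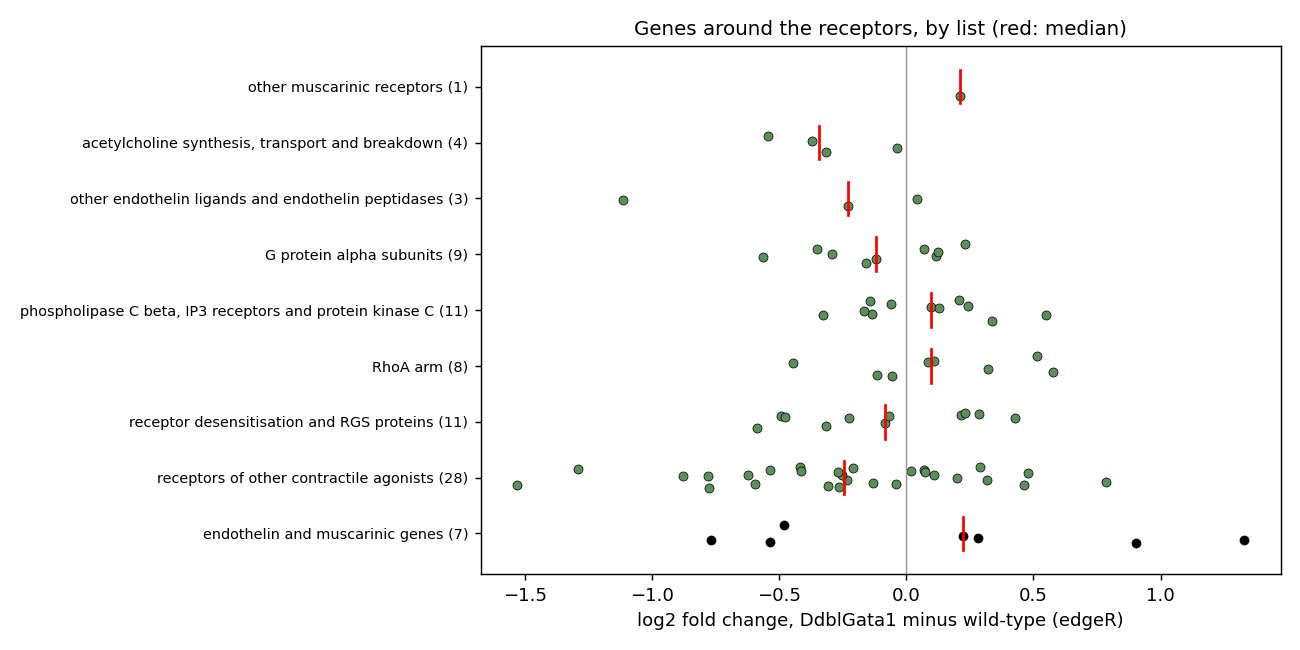
Fitted log2 fold change (horizontal axis, DdblGata1 minus wild-type) of every measured gene in 7 pathway lists, in a list of receptors for other contractile agonists, and of the 7 genes described here; red lines are medians and numbers in brackets are genes. Medians of the lists lie between -0.34 and 0.21, and that of the 7 genes is 0.22.

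Receptors for other contractile agonists served as a comparison. Of 29 listed, 28 were in the table, 10 with a higher and 18 with a lower value, and the median was -0.24. edgeR and DESeq2 each called 0 of them, and 7 had an unadjusted p under 0.05 in edgeR (1 higher and 6 lower), beside 6.03% of all genes higher and 4.23% lower. The smallest p-values belonged to Htr2b, a serotonin receptor, with 4.71 ± 0.49 CPM in DdblGata1 and 8.66 ± 2.46 CPM in wild-type libraries (log2 fold change -0.88 ± 0.29, SE; edgeR adjusted p 0.436), and F2r, the thrombin receptor, with 124 ± 15.2 CPM in DdblGata1 and 166 ± 8.22 CPM in wild-type libraries (-0.42 ± 0.14, edgeR adjusted p 0.444). Without DdblGata1 replicate 4, DESeq2 called 4 of the 28 lower, namely F2r (adjusted p 0.0143), S1pr3 (2.74e-04), Ptger1 (0.00164) and P2rx1 (0.00574), beside 3.2% of all genes called lower in that fit. Leaving that library out removed the highest DdblGata1 value of S1pr3, Ptger1 and P2rx1. S1pr3 had 120 CPM in DdblGata1 replicate 4, against 72.1 and 71.9 CPM in DdblGata1 replicates 9 and 10. In the same order, Ptger1 had 30.5 against 17.2 and 13.9 CPM, and P2rx1 11.6 against 6.09 and 3.84 CPM.

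**Figure D5:**
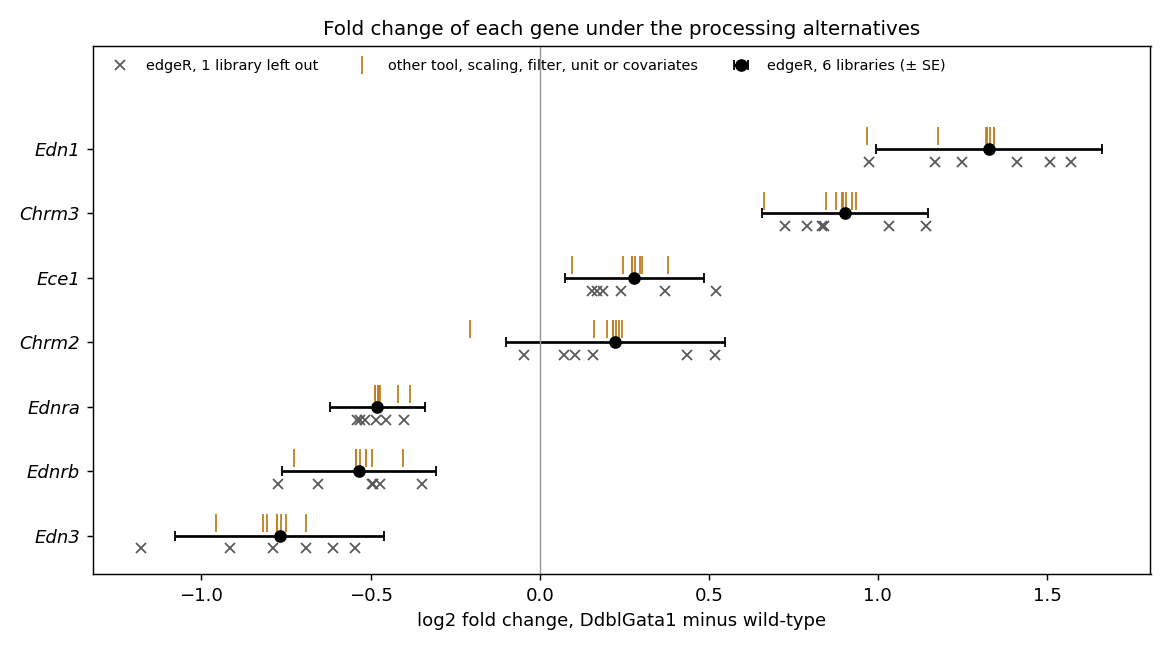
Log2 fold change (horizontal axis) of each of the 7 genes with all libraries (black, ± SE), with 1 library left out (crosses) and under other tools, scalings, filters, units and covariates (ticks). Edn1 and Chrm3 stay above 0 and Ednra, Ednrb and Edn3 below it in all 20 alternatives, including DESeq2 with a library left out, which is not drawn, while Chrm2 crosses 0.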

How the data were processed

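Per the labels, CD45-, EpCAM-, CD31- and podoplanin+ cells were sorted from intestines of wild-type or DdblGata1 pups at postnatal day 9, and stranded libraries were made from total RNA. Tools listed in the submitters' processing notes, without roles, are kallisto, DESeq2, bcl2fastq 2.2 and R 4.2.2; the builds listed are GRCm38.p6 and mm10. In the gene table the authors deposited whole-number estimated (expected) counts, and each gene reached 10 counts in 3 or more libraries. Of its values, 99.7% equalled, within 1% plus 1 count, TPM summed per gene times mean effective length and scaled to the library total. The deposited transcript files give estimated counts, TPM and other values (lengths in bases). A sheet deposited per library gives size factors (a ratio) and 2 surrogate variables (a score), of unstated method; the ratio was not used.

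Transcripts were joined to genes with GENCODE M21, which placed 113580 of 115270. All 6 libraries and all genes entered 1 fit in edgeR 4.0.16 under R 4.3.3 (TMM, filterByExpr, robust quasi-likelihood fits, no covariate). The standard error is the fold change divided by the square root of F. edgeR's diffSpliceDGE tested transcript usage on transcript counts rounded to whole numbers. Scripts were tested on simulated data. Alternatives were DESeq2 1.42.0, limma 3.58.1 (voom, and trend on log2(TPM + 1)), RLE or no scaling, a mean CPM of at least 1, plain transcript sums, the surrogate variables and leaving out each library; DESeq2 without each library was added after the data were seen. The 7 genes and all lists were chosen with earlier results of these data known. Named beside the 7 were, per list, genes called by edgeR or DESeq2 and up to 2 with the smallest edgeR p, plus the 3 genes most correlated with each of the 7 (1 of them is not reported here) among those with a mean log2 CPM (prior count 2) of at least 1, and transcripts with at least 10% of their gene. Ednrb-203, Ece1-204, Chrm4, Chrm5, Chat, Slc18a3, Gnai2, S1pr3, Ptger1 and P2rx1 were named after their values were seen. So were Rgs5, Tek and Ccl21a as single markers, and the correlations among the 7. Counts cover counting error only.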

Additional observations from a re-analysis of the deposited data

How the results depend on the processing

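No paired analysis was possible because the genotypes share only the replicate number 4. edgeR called 0 genes with all 6 libraries and 0 to 1 with a library left out, where DESeq2 called 214 (142 higher and 72 lower); DESeq2 called 43 to 1025 with a library left out (43 without DdblGata1 replicate 10, 1025 without DdblGata1 replicate 4). Among the 47 pathway genes DESeq2 called 0, and 0 to 2 with a library left out, the 2 being Gnai2 and Gna12, both lower without DdblGata1 replicate 4 (adjusted p 2.48e-04 and 0.0434). That library had the highest DdblGata1 value of both genes. Transcript usage was called in 24 genes, in 47 by the F test, in 0 when only transcripts with at least 10% of their gene were kept, and in 2 to 70 with a library left out. The fold changes of the 7 genes moved by less than the SD between replicates in all 20 alternatives each. Leaving out 1 of 3 libraries can hardly move a mean by that much, so for those fits this is no measure of stability. The sign changed for Chrm2 in 3 of the 20 alternatives and for none of the other 6 genes. DESeq2 adjusted p-values with all 6 libraries were 0.067 for Chrm3, 0.277 for Edn3, 0.109 for Ednra and 0.361 for Ednrb. With 1 library left out they reached 0.486, 0.846, 0.487 and 0.720 in the same order. For Chrm3 they fell under 0.05 only without DdblGata1 replicate 4 (0.0153) or wild-type replicate 3 (0.00683). For Edn3 this held only without DdblGata1 replicate 9 (0.0193). For Ednra it held only without DdblGata1 replicate 4 (0.0291), and for Ednrb only without wild-type replicate 1 (0.0218). The cause was not tested, and nothing is read from these values. Edn1 rested on the most counts in DdblGata1 replicate 10 (464) and on the fewest in wild-type replicate 1 (111). These libraries were of similar depth, with 30993472 and 31018196 counts in total.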
